A study of Homo sapiens with 4 samples.

Results

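Ribosomal protein pseudogenes were measured in long-read RNA sequencing libraries of H9 human embryonic stem cells, and the 87 of them with a value above 0 in every library are described here. They were taken from a table of 16174 genes by 3 criteria. The biotype contained processed_pseudogene, which also matches unprocessed_pseudogene. The name was a large-subunit (RPL) or small-subunit (RPS) protein name followed by P and a number. The TPM was above 0 in all 4 libraries. The table listed 292 genes of that name and biotype, of which 87 met the last criterion. Since the pseudogenes were chosen by their TPM in these libraries, their presence in all of them is a description and not a result. The 87 comprised 56 RPL and 31 RPS pseudogenes. Of them, 82 carried the biotype of a processed pseudogene and 5 that of a transcribed processed pseudogene.

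H9 is an established line of primed embryonic stem cells. All 4 libraries came from cells transfected with a piggyBac vector that encodes dCas9-BFP-KRAB, a Cas9 that does not cut DNA joined to a fluorescent protein and a repressor domain, under a doxycycline-inducible (TetO) promoter, and selected with puromycin. The cells with SNHG26 guides carried 4 pooled guides against the long non-coding RNA gene SNHG26, and the control cells carried non-targeting guides. Doxycycline was given for 2 days or for 3 days, and each arm has 1 library of either duration. Every library was therefore made from doxycycline-treated cells, none from untreated ones. The cells were transfected pools rather than clones, and nothing in the labels says whether the days of an arm were separate cultures, so p-values measure only the spread between these libraries. Each arm mean ± SD has n = 2 and holds both days.

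A processed pseudogene is a copy of a spliced mRNA that was reverse transcribed and inserted elsewhere in the genome, so it has no introns and usually no promoter of its own. Ribosomal proteins build the large and small subunits of the ribosome together with ribosomal RNA, and their abundant mRNAs have left more processed pseudogenes in the human genome than most other gene families. Such copies can be so close to the parent mRNA that a sequencing read of the shared stretch may be placed on either. A read counted on a pseudogene is therefore uncertain in origin, and how the deposited counts divided reads between copies is not given in the sources used here.

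The listed values are TPM, in which reads are divided by gene length and then scaled to the same total in every library. To find the length used, 39 multi-exon genes were taken for which GENCODE lists 1 transcript with the table's coordinates. Of these, 36 gave whole reads if the genomic span, introns included, was the divisor, and 0 did so if the summed exon length was. A pseudogene without introns is scaled by its own length. For a gene with several transcripts, such as most parents here, the divisor is not known exactly, and the full span was taken as its upper limit. All 87 pseudogenes came out as whole reads in every library, within 0.0001 read, when the value of 1 read was taken from the 13 mitochondrially encoded mRNAs. On a span of 400 bases, 1 read was worth 20.1 TPM (day 2) and 16.8 TPM (day 3) in the control libraries. In the SNHG26-guide libraries it was worth 18.2 TPM (day 2) and 16.3 TPM (day 3). The libraries held at most 947338 to 1220265 reads. SNHG26 itself was at 2.98 and 4.03 TPM in the control libraries of day 2 and day 3. It was at 0 and 0.933 TPM in the SNHG26-guide libraries. Of 16 markers of primed pluripotent cells, 15 were listed and 14 were above 0 in all libraries, with a summed level of 2066 to 2413 TPM and POU5F1 at 1050 to 1212 TPM. ZIC2 was listed at 0 in all libraries. Of the mesendoderm, neuroectoderm and amnion markers, 4 of 14 were listed, and MIXL1 alone was above 0, at 1.98 TPM in the control library of day 3. Of 6 fibroblast markers, 3 were listed, with a summed level of 65.1 to 96.3 TPM, most of it THY1.

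The sequences of the most read copies show how little separates them from the parents. The lines give RPS23P8 (chrX:70962964-70963293, plus strand), the stretch of the RPS23 mRNA that it copies, and RPL21P16 (chr10:120354701-120355183, minus strand). Bases 1 to 240 of each are written 5′ to 3′ from GENCODE release 29 transcripts on GRCh38, and capitals mark letters that differ between the copy and the parent mRNA.
RPS23P8: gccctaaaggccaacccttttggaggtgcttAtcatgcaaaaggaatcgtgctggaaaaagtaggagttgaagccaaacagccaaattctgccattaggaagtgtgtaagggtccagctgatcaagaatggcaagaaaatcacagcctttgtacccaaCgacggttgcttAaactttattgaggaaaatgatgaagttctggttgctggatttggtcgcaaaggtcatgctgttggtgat
RPS23: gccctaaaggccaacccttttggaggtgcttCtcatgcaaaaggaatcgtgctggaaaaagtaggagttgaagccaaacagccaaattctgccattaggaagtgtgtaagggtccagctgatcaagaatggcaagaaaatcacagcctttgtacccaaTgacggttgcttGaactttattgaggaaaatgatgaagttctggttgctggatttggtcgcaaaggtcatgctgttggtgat
RPL21P16: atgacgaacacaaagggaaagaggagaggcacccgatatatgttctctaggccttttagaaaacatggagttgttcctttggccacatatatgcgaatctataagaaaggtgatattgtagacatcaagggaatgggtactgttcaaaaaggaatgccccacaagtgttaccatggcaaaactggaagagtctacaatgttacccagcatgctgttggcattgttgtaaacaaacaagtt
RPL21P16 carries no capital, and over its full span all 483 letters match the RPL21 mRNA. RPL36AP37 (chr11:16974693-16975013, minus strand), whose sequence is not shown, likewise matches the RPL36A mRNA at all 321 letters. A read confined to either span holds no letter that tells copy from parent. Counted from the first base of the copy, with the parent's base first, RPS23P8 differed from RPS23 by C32A, T159C and G171A. It covers the last 330 of 432 coding bases of RPS23 and lacks the start codon.

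Near-identical copies differ by isolated letters. RPL21P75 (chr7:20002765-20003247, plus strand) has a single difference from RPL21 in 483 bases, G397A. Bases 367 to 427 are printed with the matching stretch of the parent mRNA.
RPL21P75: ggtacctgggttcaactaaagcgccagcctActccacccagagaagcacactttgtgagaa
RPL21: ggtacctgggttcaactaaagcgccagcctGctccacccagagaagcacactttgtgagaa
RPL13AP5, the fourth most read copy, differed from RPL13A by C105T, G206T and A273G over 612 bases.

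Reads were concentrated in a few copies. RPL36AP37, a copy of the large-subunit gene RPL36A, had 776 and 964 reads in the control libraries of day 2 and day 3 and 967 and 1030 reads in the SNHG26-guide libraries. These gave 19419, 20169, 21962 and 20957 TPM in the same order. Most of the spliced genes checked were divided by a span with introns, which lowers their TPM beside a copy of 321 bases. By mean TPM RPL36AP37 ranked 5 among all listed genes, at 20627 TPM, and that rank is not one of read number. The exact 95% Poisson interval of its lowest value ran from 18076 to 20834 TPM and covers counting error only, since reads after PCR are not independent molecules.

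RPS23P8 copies RPS23, whose protein sits near the decoding centre of the small subunit. It was at 13364 and 14674 TPM in the control libraries of day 2 and day 3 and at 15884 and 14171 TPM in the SNHG26-guide libraries, from 549 to 721 reads. RPL21P16 was at 10295 and 9427 TPM in the control libraries and at 10611 and 11400 TPM in the SNHG26-guide libraries, from 619 to 843 reads. RPL36AP37, RPS23P8 and RPL21P16 together held 62.1% to 65.3% of the summed TPM of the 87 pseudogenes and 53.1% to 56.5% of their reads. RPL13AP5 followed with a mean of 3147 TPM and 1096 reads in all. RPL13A is a large-subunit protein also known for repressing translation of some inflammatory mRNAs outside the ribosome.

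Of the other copies among the 12 highest, 7 were RPS15P4, RPS13P2, RPS18P5, RPL13P12, RPS15AP24, RPL14P1 and RPS17P16, with means from 1403 down to 807 TPM and 185 to 424 reads in all. Most of them are copies of small-subunit genes, and RPL13P12 and RPL14P1 are copies of large-subunit genes. Below these the values fell steeply. Of the 87 pseudogenes, 11 averaged over 1000 TPM, 41 averaged 100 to 1000 TPM and 35 were under 100 TPM, with a median of 127 TPM and a lowest mean of 11.1 TPM.

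**Figure D1:**
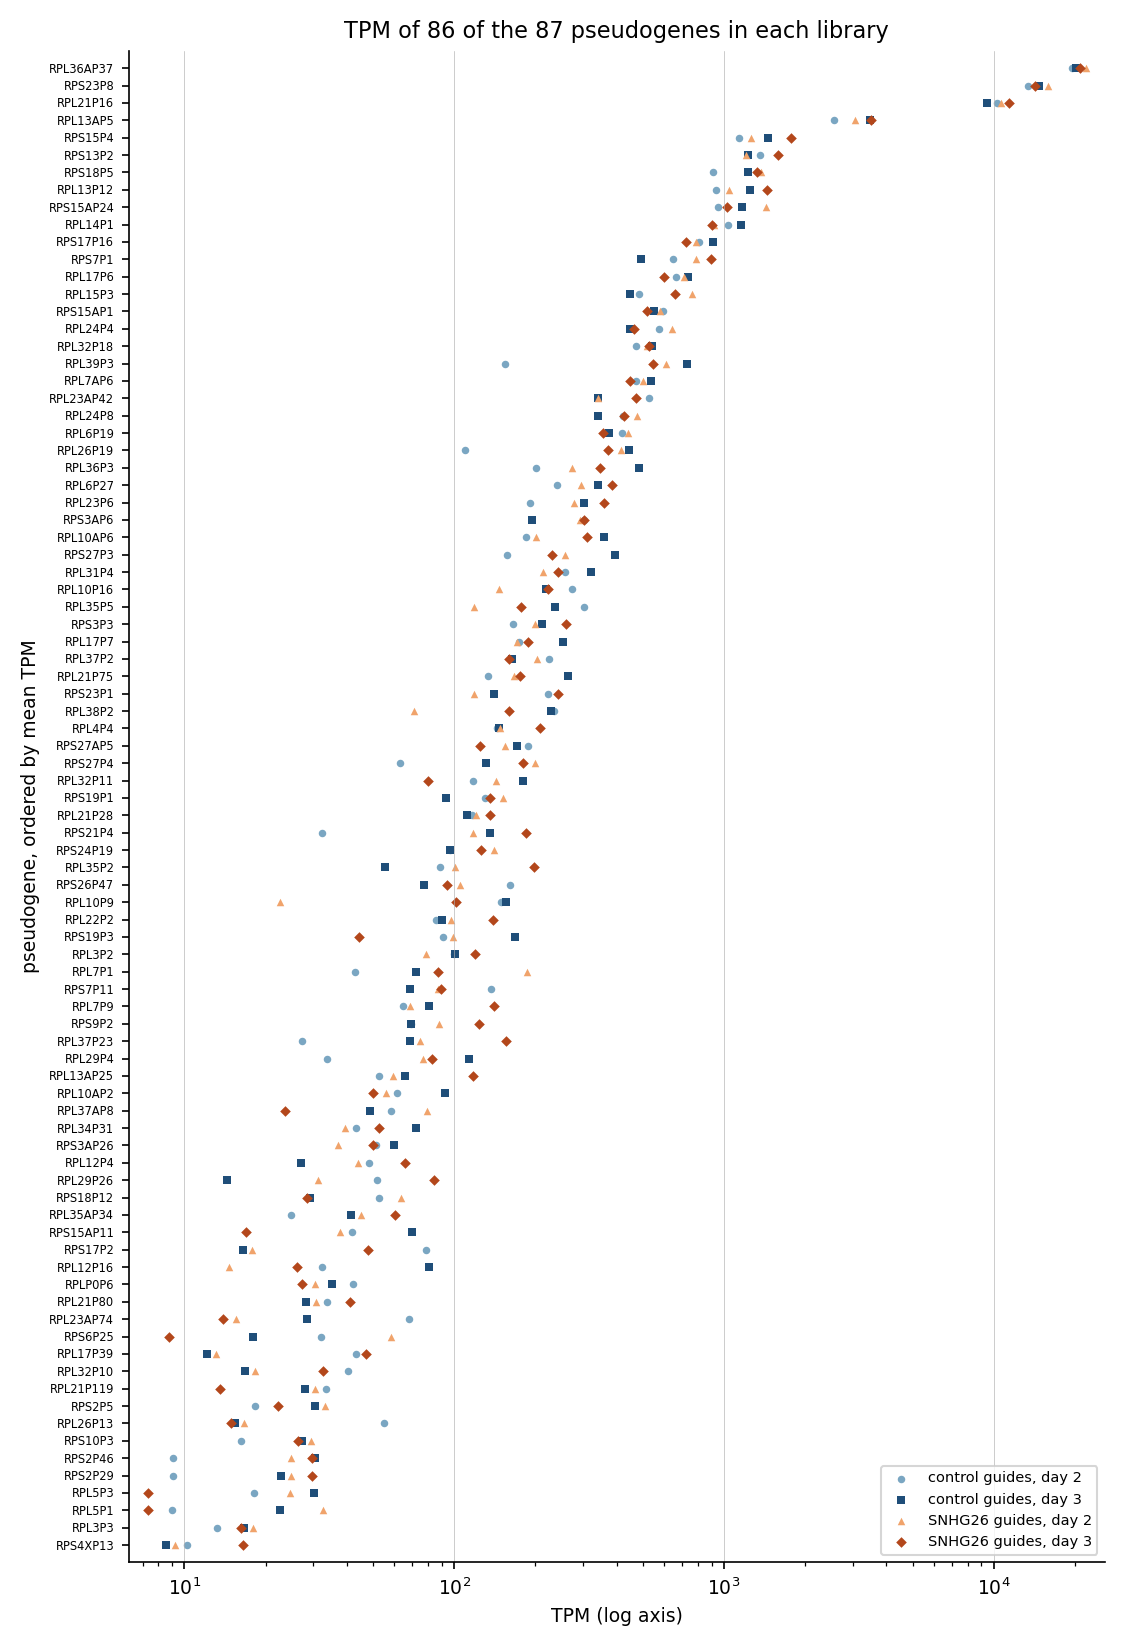
TPM (log axis) of 86 of the 87 pseudogenes in each of the 4 libraries, 1 point per library, ordered by mean TPM. RPL36AP37, RPS23P8 and RPL21P16 stand at 9427 TPM or above in every library, and the points of a row spread apart as the level falls.

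The spread between libraries followed the number of reads. Summed over the libraries, the 87 pseudogenes had 5 to 3737 reads, with a median of 33. The coefficient of variation over the 4 libraries had a median of 13.6% among the 25 copies with more than 100 reads and of 42.2% among the 27 copies with fewer than 20 reads. RPL36AP37 varied by 5.28%. In the library where it was lowest, the read number was 1 for 20 pseudogenes, under 10 for 55 and at least 100 for 5. RPL39P3, at 156 bases the shortest of the copies, was at 154 and 732 TPM in the control libraries of day 2 and day 3 and at 608 and 544 TPM in the SNHG26-guide libraries. The control library of day 2 stood apart with 3 reads, against 13 to 17 reads in the others.

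Together the 87 pseudogenes held 6.94% and 7.46% of the listed TPM in the control libraries of day 2 and day 3 and 7.75% and 7.77% in the SNHG26-guide libraries. As reads they were few: 3483, 4450, 4228 and 4809 reads in the same order, at least 0.368% to 0.405% of each library, since the library totals are upper bounds. Set against the 87 listed genes of cytosolic ribosomal proteins, the pseudogenes came to 35.7% to 38.4% of the genes' TPM but to 1.62% to 1.72% of the upper bound of their reads. The 87 made up 89.8% to 91.5% of the TPM of all listed genes whose biotype contained processed_pseudogene, unprocessed ones included.

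The criterion of a value in every library lay close to the limit of detection for many of them. The 8 pseudogenes with the fewest reads were RPS4XP13 with 5 reads in all, RPL26P13 and RPL32P10 with 6, RPL21P119 and RPS10P3 with 7, and RPL35AP34, RPL37AP8 and RPL23AP74 with 8. RPS4XP13 had 1 read in each library except the SNHG26-guide library of day 3, which had 2. Its exact 95% Poisson interval in the control library of day 2 was 0.258 to 56.7 TPM, around 10.2 TPM. A further 39 pseudogenes were above 0 in 3 libraries, with 3 to 13 reads in all and a median of 4. The highest of these by mean TPM were RPS26P2 with 13 reads, RPL22P1 with 12, RPL35AP21 with 9, RPL34P33 with 7 and RPL28P5 with 9. Several just outside thus had more reads than those just inside. Another 47 were above 0 in 2 libraries, 112 in 1 library and 7 in none, and a count of 0 allows up to 3 reads.

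The 87 pseudogenes copied 54 of the 87 listed ribosomal protein genes, and 33 genes had no copy among them. Of these 54 families, 28 had 1 copy, 21 had 2, 4 had 3 and RPL21 had 5. The copies lay on 22 chromosomes, with 8 each on chromosomes 3 and 6. Copies and parents were compared as reads, because the span of a parent holds introns. Except for RPL39, the parents' TPM did not come out as whole reads over the full span, so the full span was used as an upper bound on their reads.

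In 3 families the pseudogene reads were above the parent's upper bound in all 4 libraries, and RPL36A and RPL21 are described here. RPL36A (chrX:101390824-101396155) was at 3.34 and 2.83 TPM in the control libraries of day 2 and day 3 and at 10.2 and 9.20 TPM in the SNHG26-guide libraries. Its upper bound summed to 19.5 reads, against 3737 reads on RPL36AP37, a ratio of 192. RPL21 (chr13:27251362-27259609) had at most 317 reads against 2943 on its 5 copies, a ratio of 9.28. In both, an intronless copy without a letter of difference took most of the reads counted. Whether reads of the parent mRNA were counted on the copy was not tested.

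In most other families the parent's upper bound lay above the reads of the copies. RPL7 had at most 50.4 reads against 79 on RPL7P1 and RPL7P9, which were above the bound in 3 libraries. The bound of RPS26 was passed in 1 library by RPS26P47, with 21 reads against at most 42.5. In 49 families the copies never passed the bound, and over all 54 the median ratio of copy reads to the parent's upper bound was 2.55%, a lower limit of the true ratio. RPS23 with a ratio of 0.311, RPL13A with 0.407 and RPS15 with 0.315 lay between, although their copies RPS23P8, RPL13AP5 and RPS15P4 were among the highest. RPL37A had the lowest ratio to its bound, with 8 reads on RPL37AP8 against at most 118358. That bound is loose, because the listed RPL37A locus spans 80356 bases. Spearman's rho between the parent's bound and the copy's reads was -0.111 over 87 copies, which share libraries and, within a family, a parent. Because the bound grows with the span of the parent locus, this value cannot show whether copies follow the level of their parents.

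**Figure D2:**
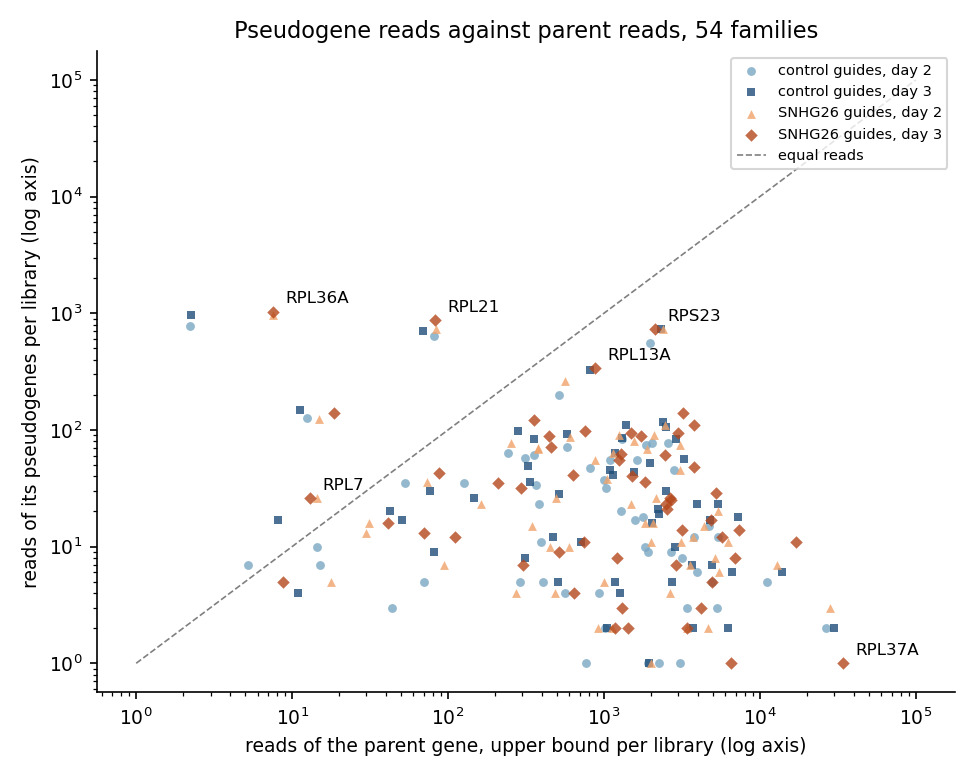
Reads of all copies of a family (log axis) against the upper bound of the parent's reads (log axis), 1 point per family and library, 54 families. Points of RPL36A and RPL21 lie above the dashed line of equal reads in all 4 libraries, and most families lie far below it.

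RPL21, a large-subunit protein, had the most copies, and most of its reads lay on 1 of them. Of 23 listed RPL21 pseudogenes, 5 were above 0 in every library. RPL21P16 held 2843 of their 2943 reads, 96.6%. RPL21P75 had 51 reads, RPL21P28 had 33, RPL21P80 had 9 and RPL21P119 had 7. RPL21P75, with 1 letter of difference, thus had far fewer reads than RPL21P16, with none. RPL21P28 and RPL21P119 each had 3 differing letters and RPL21P80 had 15. RPL21P75 was at 133 and 264 TPM in the control libraries of day 2 and day 3 and at 166 and 176 TPM in the SNHG26-guide libraries, so the control libraries held both its lowest and its highest value.

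Sequence was matched for 86 of the 87 pseudogenes by their coordinates, and all but RPS27AP5 are covered in what follows. For all 86 the nearest ribosomal protein mRNA was that of the gene in their name, and 80 aligned over their full span. Identity to the parent mRNA had a median of 97.6% and ran from 89.2% to 100%. The number of differing letters, mismatched or gapped, had a median of 12 and a highest value of 92, in RPL3P3. Identity and differing letters were taken within the aligned stretch only, so bases outside it are not counted. RPL36AP37, RPL21P16 and RPL39P3 were without any difference.

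Copies with fewer differences had more reads, in a loose relation. The 16 copies with 0 to 3 differing letters had a median of 48.5 reads, and 7 of them passed 100 reads. For the 18 copies with 4 to 9 differing letters the median was 81.5 reads, with 8 over 100. For the 30 with 10 to 19 the median was 27.5 reads, with 9 over 100. The 22 copies with 20 or more had a median of 12 reads, and 1 of them, RPL4P4, passed 100, with 118. Spearman's rho between differing letters and reads was -0.455 over 86 copies from the same libraries, whereas that between length and reads was 0.047 over 87. Near identity did not go with many reads everywhere: RPL21P119 had 7 reads with 3 differing letters. RPL39P3 had 46 reads with none. Of the 26 families with several copies, the copy nearest to the parent had the most reads in 16, another copy did in 6, and copies were tied for nearest in 4. In 21 of these families there were only 2 copies, so the nearest would often have the most reads without any relation.

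**Figure D3:**
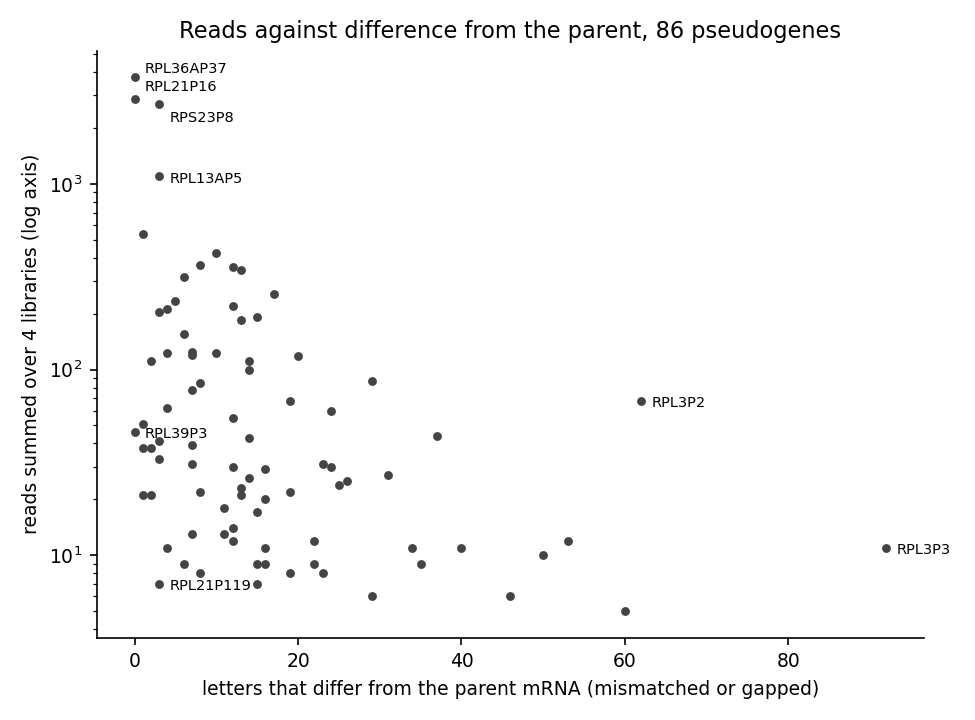
Reads summed over the 4 libraries (log axis) against the number of letters that differ from the parent mRNA in the aligned stretch, 1 point for each of 86 pseudogenes. RPL36AP37, RPL21P16, RPS23P8 and RPL13AP5 lie at 0 to 3 differing letters, and copies with 20 or more stay at or under 118 reads.

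Identity also went with the number of libraries in which a pseudogene of this class was above 0. Its median was 93.2% for the 111 with a value in 1 library, 93.8% for the 46 in 2 libraries, 94.7% for the 39 in 3 libraries and 97.6% for the 86 in all 4. Differing letters fell from a median of 35 to 28.5, 24 and 12 in the same order, while the median length stayed between 423 and 495 bases. The groups overlapped widely, and copies of 100% identity were also found in 1 and in 2 libraries. Here too only the aligned stretch was counted, and its share of the span is not given for each group.

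**Figure D4:**
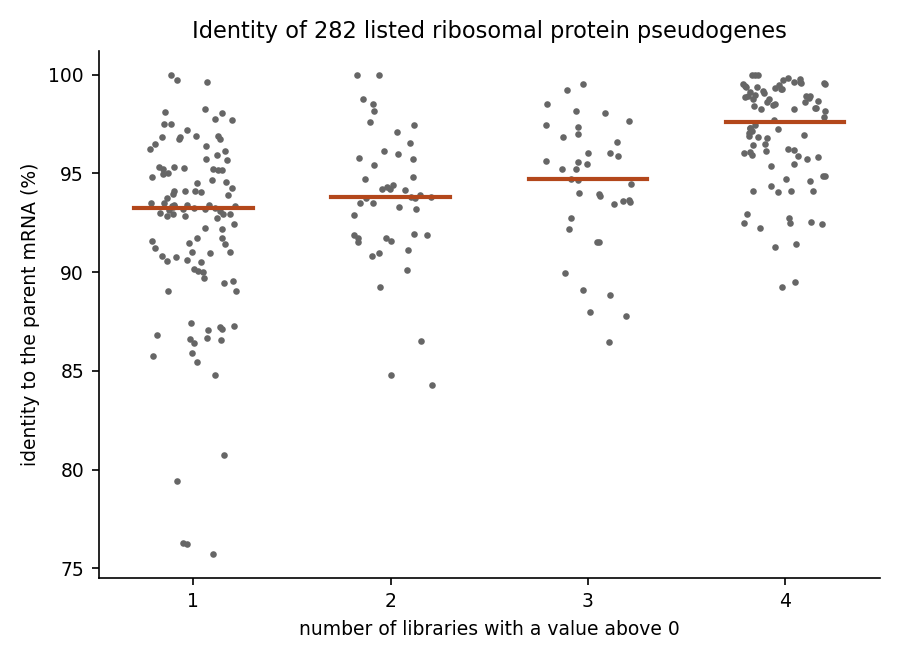
Identity to the parent mRNA (%) of 282 listed ribosomal protein pseudogenes with sequence, by the number of libraries with a value above 0, spread sideways at random. The bars are medians and rise from 93.2% in 1 library to 97.6% in 4 libraries.

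A start codon at the place of the parent's was kept by 81 of 86, the span equalled the parent's coding length in 40, and an open frame as long as the parent's was kept by 34. Copies with that frame had a median of 42.5 reads and the other 52 had 28. Among the 12 highest, 5 kept the frame, including RPL36AP37, RPL21P16 and RPL13AP5. RPS15AP24 had an open frame of 87 of 393 bases with 256 reads, so many reads were also counted on copies with a broken frame.

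Overlaps in the GENCODE annotation were sought with protein-coding and long non-coding genes only. No such gene overlapped 40 of the 87 copies, and 28 overlapped one on the opposite strand only. A further 16 lay in an intron of such a gene on the same strand, and 3 overlapped an exon on the same strand. Median reads were 29.5, 55.5, 21.5 and 42 in the same order. RPL36AP37 lies in an intron of PLEKHA7, which was at 0.0678 and 0.0566 TPM in the control libraries of day 2 and day 3 and at 1.79 and 0.0826 TPM in the SNHG26-guide libraries. The SNHG26-guide library of day 2 stood above the other libraries in PLEKHA7. Reads of a host and of a copy in its exon cannot be told apart in the table, which applies to RPL10P16, RPL12P16 and RPS27AP5.

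No pseudogene of the 87 passed the test between SNHG26 guides and control guides. Of 8274 genes tested by limma with Benjamini-Hochberg adjustment over all of them, 0 were called (0%), and 337 (4.07%) had an unadjusted p under 0.05. All 87 pseudogenes were tested, 0 were called with a smallest adjusted p of 0.858, and 4 (4.60%) had an unadjusted p under 0.05. Values with SNHG26 guides lay above both control values for 18 pseudogenes (20.7%), against 16.1% of all genes tested. They lay below both for 14 (16.1%), against 13.2%. These shares are near the background. The median change was 0.11 on the log2(TPM + 1) scale, against 0.04 over all genes tested, with 47 pseudogenes higher and 40 lower. It was 0.07 under median ratio scaling and 0.05 under quantile normalization. The median change was 0.12 on day 2 and -0.04 on day 3, and for 48 pseudogenes the sign was the same on both days.

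The highest copies differed little between the arms. RPL36AP37 averaged 21460 ± 710 TPM (SD, n = 2) with SNHG26 guides and 19794 ± 531 TPM with control guides, without overlap. Its change was 0.12 with a standard error of 0.06 on the log2 scale and an adjusted p of 0.935 by limma, higher on both days. RPL21P16 was 0.16 higher (standard error 0.08, limma adjusted p of 0.935), also without overlap. RPS23P8 was 0.10 higher, with overlapping arms. RPL14P1 and RPS17P16 were lower without overlap, by -0.27 and -0.18, and RPS18P5 was higher without overlap, by 0.35. No difference among these passed limma's adjusted threshold.

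Summed over the 87 pseudogenes, the level was 74145 ± 51.8 TPM (SD, n = 2) with SNHG26 guides and 68900 ± 3415 TPM with control guides, a ratio of 1.08. By an exact permutation test, two-sided, p was 0.33, which is the smallest that 2 libraries against 2 allow. Under median ratio scaling the summed values of the arms overlapped, with an exact p of 0.667. The ribosomal protein genes themselves had a median change of 0.11, with 68 of 86 tested higher, against 4407 of all 8274 genes tested. Under median ratio scaling and under quantile normalization 58 of the 86 were higher, with medians of 0.07 and 0.05. Limma called 0 of the 86, and 1 had an unadjusted p under 0.05. That gene was RPL36A, at 9.72 ± 0.738 TPM with SNHG26 guides and 3.09 ± 0.362 TPM with control guides (n = 2), with a limma adjusted p of 0.755. These levels rest on at most 2.22 and 2.25 reads in the control libraries of day 2 and day 3. In the SNHG26-guide libraries they rest on at most 7.49 and 7.51 reads. Reads on RPL36AP37 were accordingly 133 ± 5.71 times the upper bound of RPL36A with SNHG26 guides and 389 ± 55.9 times with control guides (n = 2). Values with SNHG26 guides lay above both control values for 33 ribosomal protein genes (38.4%), against 16.1% of all genes tested. They lay below both for 2 (2.33%), against 13.2%. Under median ratio scaling these counts were 20 and 3, and those of the pseudogenes were 15 and 15. Of all genes tested, 14.4% then lay above and another 14.4% below.

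The largest changes with the same sign on both days rested on few reads. RPL10P9, a copy of RPL10, had 12 and 15 reads in the control libraries of day 2 and day 3 and 2 and 10 reads in the SNHG26-guide libraries. Its TPM were 149 and 156 in the control libraries and 22.6 and 101 in the SNHG26-guide libraries, a change of -1.65 with a standard error of 0.76 and a limma adjusted p of 0.935. The low value came mostly from the SNHG26-guide library of day 2. RPL23AP74, RPL12P16 and RPL38P2 followed with -1.53, -1.34 and -1.12, from 1 to 7 reads per library. On the higher side RPL37P23, RPL7P1, RPS21P4 and RPS27P4 had changes of 1.29, 1.18, 1.14 and 1.05. Leaving out 1 library moved these widely, from 0.12 to 2.15 for RPS21P4 and from 0.64 to 1.94 for RPL37P23. RPL7P1 had 4 and 8 reads in the control libraries and 19 and 10 in the SNHG26-guide libraries, and RPS21P4 overlapped between the arms.

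The 4 pseudogenes with an unadjusted p under 0.05 were RPL15P3, RPS7P1, RPL35P5 and RPL23AP74. RPL15P3 had the most even separation. It was at 483 and 448 TPM in the control libraries of day 2 and day 3 and at 759 and 658 TPM in the SNHG26-guide libraries, from 37 to 64 reads, a change of 0.60 with a standard error of 0.15 and a limma adjusted p of 0.858. RPS7P1 had a difference of 0.57, from 43 to 80 reads per library. RPL35P5 had a difference of -0.89, from 6 to 14 reads per library. Their number is near the background share, and none passed the adjusted threshold.

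**Figure D5:**
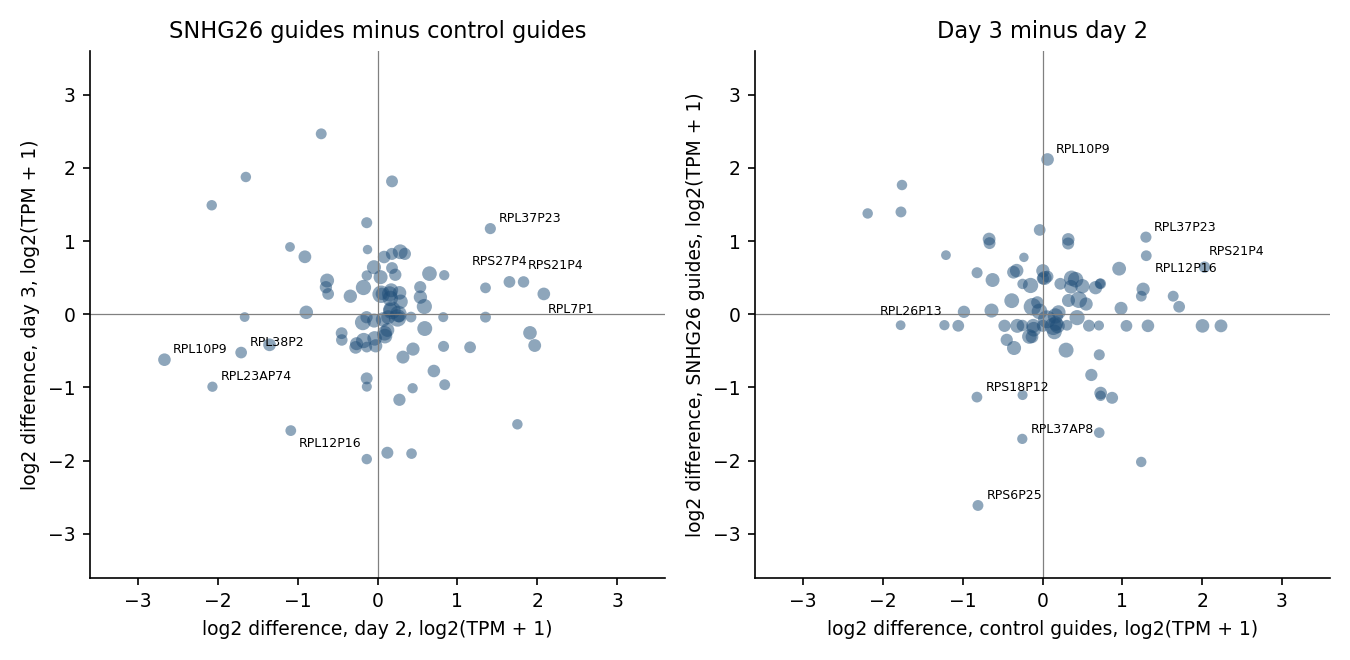
Differences in log2(TPM + 1) of the 87 pseudogenes, with larger points for more reads. Left, SNHG26 guides minus control guides on day 3 against day 2. Right, day 3 minus day 2 with SNHG26 guides against control guides. Large points gather near 0, and the labelled pseudogenes with the largest same-sign changes are small points.

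Day 3 was compared with day 2 in the same 4 libraries, so this comparison shares all its samples with that of the guides. By limma with adjustment over all 8274 genes, 3 genes were called (0.0363%), the small RNA genes SNORD68, MT-TG and RNVU1-31, and 547 (6.61%) had an unadjusted p under 0.05. Of the 87 pseudogenes 0 were called, with a smallest adjusted p of 0.406, and 7 (8.05%) had an unadjusted p under 0.05. Both day 3 values lay above both day 2 values for 18 (20.7%), against 17.1% of all genes tested, and below for 10 (11.5%), against 18.4%. Under quantile normalization the counts were 15 and 15, against 16.8% and 19.6%. The median change was 0.08, against 0.01 over all genes tested, with 51 pseudogenes higher and 36 lower on day 3. It was 0.08 with SNHG26 guides and 0.13 with control guides. The summed level was 72711 ± 1975 TPM (SD, n = 2) on day 3 and 70333 ± 5442 TPM on day 2, with an exact permutation p of 1.

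Among the well-read copies, RPL13P12, a copy of the large-subunit gene RPL13, was at 935 and 1043 TPM in the control and SNHG26-guide libraries of day 2 and at 1246 and 1448 TPM in those of day 3. The days did not overlap, with a change of 0.44 (standard error 0.13, limma adjusted p of 0.661). RPL13AP5 and RPS15P4 were also higher on day 3 in both arms, by 0.33 and 0.43. So were RPL6P27 and RPL32P18, by 0.44 and 0.11. Other well-read copies were lower on day 3 without overlap: RPL24P4, RPL6P19 and RPS15AP1 had differences of -0.41, -0.23 and -0.14. RPL10AP6, higher by 0.79, had the smallest limma adjusted p of the pseudogenes, 0.406. RPL36AP37, RPS23P8 and RPL21P16 had differences of -0.01, -0.02 and -0.01, with overlapping days. The parent RPL13A was 0.44 higher on day 3, with a limma adjusted p of 0.50, beside 0.33 for its copy.

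The largest same-sign differences between the days again had few reads. RPS21P4, RPL37P23, RPL10P9 and RPL12P16 were higher by 1.34, 1.17, 1.09 and 1.05, and RPS6P25, RPL37AP8, RPS18P12 and RPL26P13 had differences of -1.71, -0.98, -0.98 and -0.96. RPS6P25, a copy of the small-subunit gene RPS6, had 3 and 6 reads in the control and SNHG26-guide libraries of day 2 and 2 and 1 reads in those of day 3. RPS18P12 had 3 and 4 reads on day 2 and 2 in each library of day 3. RPL10P9 was higher by 2.12 with SNHG26 guides and by 0.06 with control guides, so that its difference lay in the SNHG26-guide library of day 2, with 2 reads. Whether the guide change differed between the days was tested by the interaction of guides and day, with the guide and day effects left in the spread. Limma called 8 of 8274 genes (0.0967%) and 0 of the 87 pseudogenes, with a smallest adjusted p of 0.298. An unadjusted p under 0.05 was found for 7 pseudogenes (8.05%), against 3.52% of all genes tested.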

How the data were processed

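Poly(A) RNA was read as amplified nanopore cDNA, per the labels' protocols, with 14 cycles of PCR and no molecular identifiers described. The submitters' processing notes name minimap2 2.24-r1122 and GRCh38. The authors deposited gene TPM; the counting tool, annotation release and treatment of reads that match several places are not given in the sources used here.

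The members and lists were chosen with earlier results of these data known. Reads per gene were recovered as TPM times span divided by the library's value of 1 read. Libraries were grouped by guides, and again by day. The 8274 genes whose mean reached 1 TPM were tested on log2(TPM + 1), which understates changes of low genes. The test was limma 3.58.1 in R 4.3.3 (eBayes with a trend, Benjamini-Hochberg adjustment, threshold 0.05). It was also run on simulated reads with Poisson counting error only, which leaves out any other spread between libraries. Same-numbered libraries share a day of doxycycline, per the labels, and the correlation of their deviations from the arm means was 0.046 over 8274 genes. A fit with a replicate block was an alternative, with the day as the block for the guides and the guide arm as the block for the days, as were other pseudocounts, filters, scalings, no trend, voom on whole reads and leaving out each library. Summed levels were compared by an exact permutation test. Copies were aligned to parent mRNAs of GENCODE 29 transcripts with blastn 2.17.0, matched by coordinates, since 26 of 86 have another name there. Lists of markers and ribosomal protein genes were read off as levels or from the same fit.

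Pseudogenes were named if among the 12 highest by mean TPM, the 10 with most reads, the 8 with fewest, the 4 each way with the largest same-sign change, the RPL21 family or the 5 highest just outside the criterion. Others were chosen after their values were seen. Some results for 1 family and 1 sequence are not reported here.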

Additional observations from a re-analysis of the deposited data

How the results depend on the processing

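No pseudogene tested was called by limma for guides or days under any alternative run with 4 libraries. All 87 were tested in each of these except voom on whole reads, which tested 40 of them. With 3 libraries an arm or day holds a single library, assumed to vary like the others. The count of all genes called for guides was 0 throughout. The count called for days was 3 and fell to 0 with a pseudocount of 0.1, a pseudocount of 5, no filter, quantile normalization, no trend and the replicate block (here the guide arm). It was 7 of 403 genes with voom on whole reads, and 0 to 0 when each library was left out. The replicate block changed no other call. The cause was not tested. The median change of the pseudogenes between days was 0.08 and ran from 0.067 to 0.19 when each library was left out; it was highest without the control library of day 3 (0.19) and was 0.12 without the SNHG26-guide library of day 3. That between guides ran from 0.03 to 0.16, lowest without the SNHG26-guide library of day 3 (0.03) or the control library of day 2 (0.04). Of 193 alternatives for the 16 changes with the same sign in both pairs, 192 kept their direction. These 16 changes were chosen for that shared sign and run again on the same values, so their kept direction was largely fixed in advance. Their sizes moved more when each library was left out: between guides RPS27P4 ran from 0.52 to 1.57, RPL7P1 from 0.64 to 1.72, RPL10P9 from -2.70 to -0.59, RPL23AP74 from -2.14 to -0.92, RPL12P16 from -1.99 to -0.69 and RPL38P2 from -1.69 to -0.54. Between days RPS21P4 ran from 0.42 to 2.25, RPL37P23 from 0.47 to 1.88, RPL12P16 from 0.26 to 1.84, RPS6P25 from -2.19 to -1.23, RPL37AP8 from -1.48 to -0.47 and RPL26P13 from -1.80 to -0.13. The exception in direction was RPL10P9 between days, which ran from -0.25 to 2.43 as each library was left out and was -0.25 without the SNHG26-guide library of day 2. Requiring values in at least 3 libraries gave 126 pseudogenes in place of 87. Depth limits most results: 55 of the 87 had under 10 reads in their lowest library.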
